A study of Mus musculus with 12 samples.

Results

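Single housing was compared with group housing in cortical parvalbumin interneurons of Nptx2 knockout (KO) mice. The comparison used 6 of the 12 libraries in the series: 3 from single-housed and 3 from group-housed KO mice, chosen by the group names in the deposited table. Of the 13190 genes in the table, the 12716 with a value of at least 1 in at least 3 of the 12 libraries were tested. The other 6 libraries came from wild-type (WT) mice in the same 2 housing conditions, 3 of each, and were used for the spread and for values set side by side. All 12 libraries came from cortex of C57BL/6 mice with one PV-Cre allele and both RiboTag alleles. Housing started at weaning and lasted at least 4 weeks, and the labels treat single housing as a social stress. RiboTag puts a tag on a ribosomal protein in cells that express Cre, here under control of the parvalbumin locus, so the RNA recovered is that bound to tagged ribosomes of any cell with Cre. The series text gives 3 biological replicates a group, and the labels state neither age, sex nor the structure of the Nptx2 allele.

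Parvalbumin interneurons are fast-spiking inhibitory cells that use GABA and control the timing of cortical output. Excitatory axons release Nptx2, a neuronal pentraxin, which gathers AMPA receptors containing the Gria4 subunit on these interneurons and so adjusts their excitation to ongoing activity. Isolation after weaning is a widely used stress in mice that alters social behaviour, and parvalbumin interneurons are among the cells studied in it.

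Values are log2(FPKM + 1), where FPKM scales sequenced fragments to transcript length and to the fragments of the library. Differences are single minus group housing on that scale, which understates changes of genes with low values. They are given with the standard error (SE) of a limma fit over all 12 libraries. Libraries are named by the barcode in their column. Of the group-housed KO libraries the first was CGATGT, the second ATGTCA and the third GTGAAA, and of the single-housed KO libraries the first was CAGATC, the second CTTGTA and the third AGTCAA, in the order in which values are given. Sequencing depth is unknown.

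The targeted gene was read first. Nptx2 stood at 2.37, 2.74 and 2.62 in the group-housed libraries labelled KO, and at 2.68, 2.43 and 2.54 in the single-housed ones, against 2.23 to 2.62 over the 6 WT libraries. It was thus present in every library labelled KO and did not check the genotype, so the genotype is that of the labels. Pvalb, for the calcium-binding protein after which these cells are named, was at 9.99, 10.12 and 9.93 in group housing and 10.28, 9.65 and 9.85 in single housing. The 32 listed parvalbumin interneuron markers in the table summed to 7453 to 7732 FPKM in group-housed and 7361 to 7813 FPKM in single-housed KO. The 17 excitatory neuron markers in the table summed to 389.9 to 447.0 and 359.9 to 452.7 FPKM, and the 19 astrocyte markers to 409.3 to 428.7 and 416.6 to 467.5 FPKM. None of these markers was at 0 in all 6 libraries.

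The single-housed KO libraries were split in their sex-linked genes. Ddx3y, a Y-linked RNA helicase gene, was listed at 0 in the 3 group-housed KO libraries and in CAGATC, and at 3.62 in CTTGTA and 3.45 in AGTCAA. Eif2s3x, a translation factor gene active on both X chromosomes, was at 5.81 to 5.92 in the former 4 libraries and at 5.26 and 5.30 in the latter 2. In WT, Ddx3y was listed at 0 in the 3 group-housed libraries and stood at 3.21, 3.53 and 3.53 in the 3 single-housed ones. Housing and Y-linked signal therefore overlap in part in KO and coincide in WT, so in every WT difference below they cannot be told apart, and an interaction of housing and genotype carries the same limit. In KO a comparison free of it leaves CAGATC alone against the 3 group-housed libraries. The first of the 3 single-housed values in each sentence below is that of CAGATC.

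Housing was associated with few differences that stood out from the spread between libraries. In KO, 1 of 12716 genes passed the test at an adjusted p under 0.05, which is 0.00786% of those tested, and it was lower in single housing (limma with Benjamini-Hochberg adjustment). An unadjusted p under 0.05 was reached by 554 genes or 4.36% of those tested. At that threshold 635.8 would be expected if no gene differed. Of the 554 genes 298 were higher (2.34%) and 256 lower (2.01%). The median absolute difference was 0.06 and 95% of genes lay within 0.35. The 3 values of 1 housing condition lay wholly above or below those of the other in 865 genes, 6.8% of those tested, with 441 above (3.47%) and 424 below (3.33%). Correlations between libraries ran from 0.9801 to 0.984 across housing conditions, 0.9803 to 0.9841 within group housing and 0.9818 to 0.986 within single housing, and these ranges overlap. The count of genes that passed ran from 1 to 8 when single libraries were left out, with 8 without AGTTCC, 7 without GTCCGC and 4 without GCCAAT, all WT, and 6 without CAGATC, and it was 2 without any 1 of the other KO libraries or without CCGTCC. It was 16 in the 6 KO libraries alone, 17 with a term for Y-linked signal and 19 without the 2 KO libraries that carry that signal, where the WT libraries, 3 of them with the signal, stayed in the fit.

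The same contrast in WT used none of the same libraries, and there 50.9% of genes were higher and 49.0% lower. In WT 5 genes passed (0.0393%) and 1560 had an unadjusted p under 0.05 (12.3%), and the median absolute difference was 0.09. The lists of genes with an unadjusted p under 0.05 shared 112 genes, 20.2% of the KO list and 7.18% of the WT list, of which 79 differed in the same direction and 33 in opposite directions. Across the 12716 genes, which are not independent, the 2 housing differences had a Pearson r of 0.0448 and a Spearman rho of 0.0153. Whether a gene responded differently in KO and WT was tested with the interaction of housing and genotype, which in WT rests on libraries that differ in Y-linked signal as well, and in which 1 gene passed (0.00786%) and 981 had an unadjusted p under 0.05 (7.71%).

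**Figure D1:**
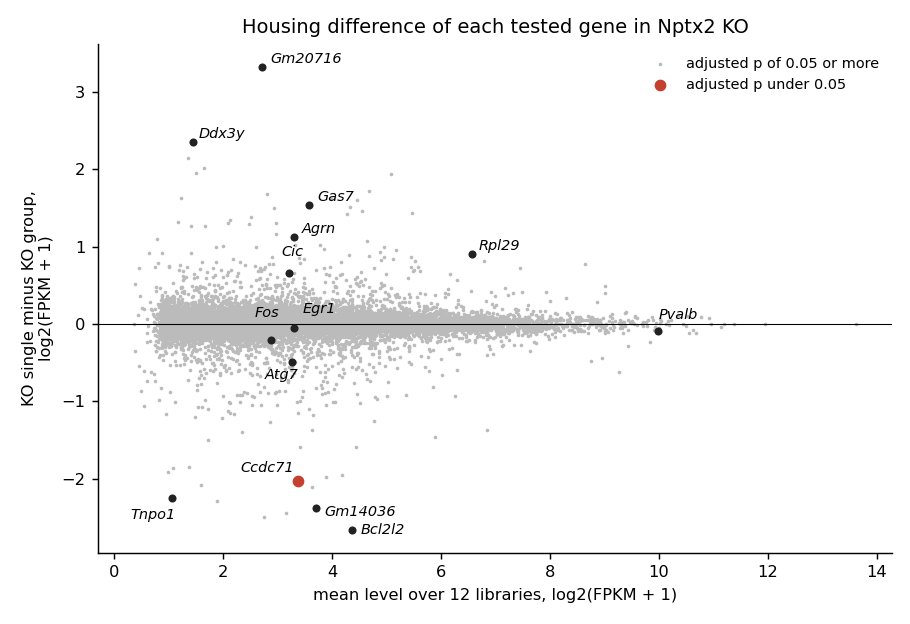
Difference between single and group housing in Nptx2 KO (vertical axis, log2(FPKM + 1)) against the mean level over 12 libraries (horizontal axis), with 1 point for each of the 12716 genes tested. Ccdc71, at -2.04, is the 1 gene with an adjusted p under 0.05. Several genes with differences as large, such as Bcl2l2 and Gm20716, did not pass. The test takes its spread from the WT groups as well as the KO groups. Bcl2l2 was even within each KO group and uneven among WT libraries.

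Ccdc71 was the gene that fell. It encodes a coiled-coil domain protein whose role is little known, and lies on GRCm38 at chr9:108460527-108465938 on the plus strand (ENSMUSG00000049305). Its level was 3.83, 3.81 and 3.94 in the group-housed KO libraries and 1.56, 2.32 and 1.59 in the single-housed ones. The 6 WT libraries lay at 3.76 to 3.94, so that the 3 single-housed KO libraries were low and the other 9 were alike. The mean went from 3.86 ± 0.07 to 1.82 ± 0.43 (SD, n = 3 each), a difference of -2.04 ± 0.17 (95% interval -2.41 to -1.67; limma, adjusted p = 0.0025), or a 4.1-fold lower FPKM + 1. The difference was -2.30 without the 2 KO libraries that carry Y-linked signal and -1.90 without CAGATC. In WT the housing difference was 0.06 ± 0.17, and the interaction was -2.10 ± 0.23 (limma, adjusted p = 0.0485). The interaction lost its call in 3 of 9 other analyses, with adjusted p from 3.49e-05 to 0.12 over the 9, and in 10 of the 12 that left out 1 library.

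No gene next to Ccdc71 passed the test. The 3 tested genes on each side were Gpx1, Usp4 and Klhdc8b before it and Usp19, Qars and Qrich1 after it. Klhdc8b, on the opposite strand, overlaps the annotated span of Ccdc71 and had 2.75, 3.19 and 2.63 in group and 3.09, 2.91 and 2.19 in single housing, a difference of -0.13 ± 0.24. Differences of the deubiquitinase genes Usp4 and Usp19, of Qars, the glutaminyl-tRNA synthetase gene, and of Qrich1 were -0.07 to -0.05. Gpx1, for glutathione peroxidase, was at 5.61, 5.89 and 5.75 in group housing and at 5.95, 5.70 and 3.48 in single housing. Its 1 low value, in AGTCAA, was not shared by CAGATC or CTTGTA, and 5 of the 6 WT libraries were low as well, with 5.79 in the remaining one.

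**Figure D2:**
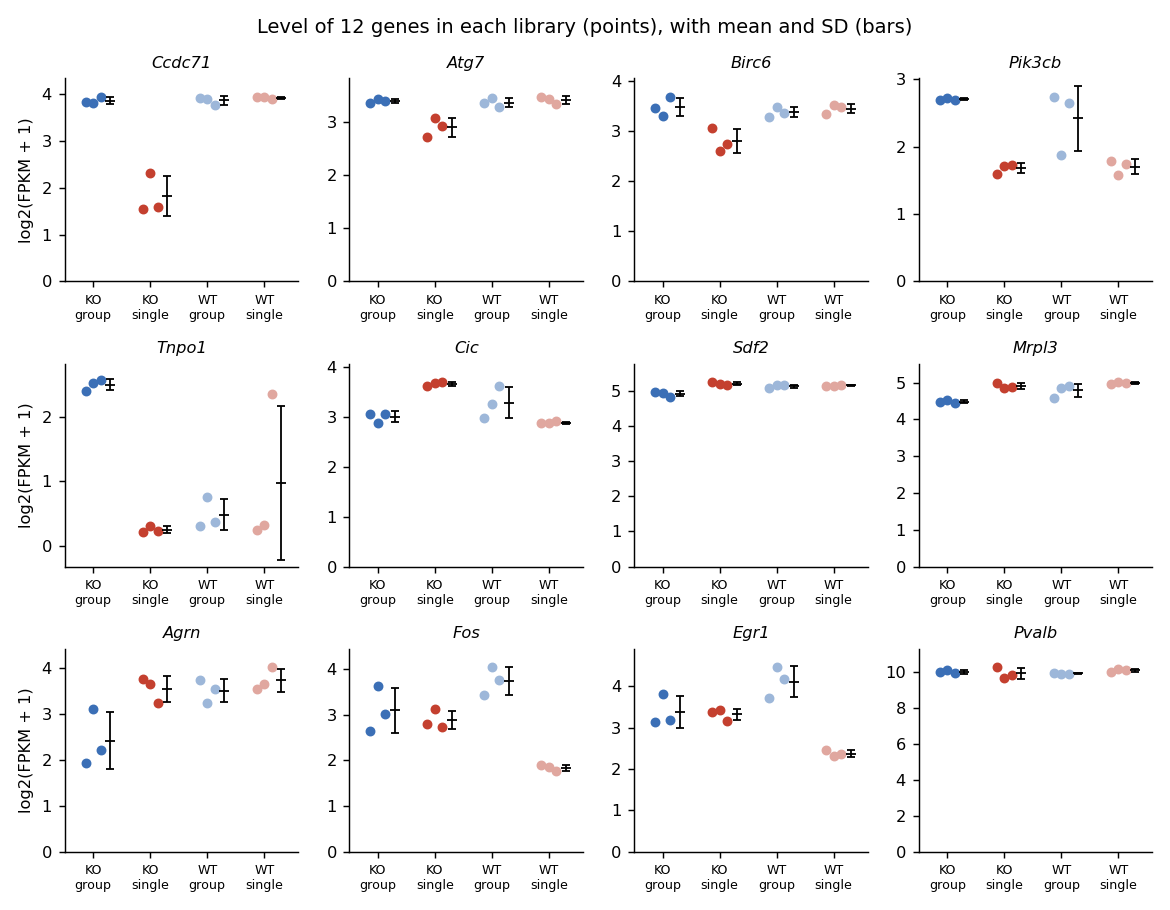
Level of 12 genes in each library (points, log2(FPKM + 1), vertical axes) by group, with the mean and SD of each group of 3 (bars). Ccdc71 is low in the 3 single-housed KO libraries only, while Fos and Egr1 are low in the 3 single-housed WT libraries.

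No other gene passed in KO. The next smallest p was that of A530032D15Rik, named after its values were seen, at 0.84, 1.10 and 0.78 in group and 0.10, 0 and 0 in single housing (-0.87 ± 0.13; limma, adjusted p = 0.309). It was listed at 0 in the 3 single-housed WT libraries as well, with a difference in WT of -1.0 ± 0.13 that passed (limma, adjusted p = 0.0365). A stretch of 861 bases of A530032D15Rik is 98.5% identical to Sp140, so its value is uncertain. The genes described next, given as values, are the 12 per direction with the smallest unadjusted p, leaving out predicted and clone names. The 2 housing conditions did not overlap in any of them, as in 6.8% of all genes. Choosing genes by the smallest p of the same contrast favours such separation, so it is not a further result.

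Among lower values, Atg7, the E1-like enzyme that starts conjugation of autophagy proteins, was at 3.34, 3.42 and 3.39 in group and 2.71, 3.06 and 2.92 in single housing (-0.49 ± 0.09; limma, adjusted p = 0.4). CAGATC had the lowest of these values, and the 6 WT libraries lay at 3.27 to 3.46. Birc6, a very large ubiquitin ligase that restrains apoptosis and autophagy, was at 3.45, 3.30 and 3.68 against 3.06, 2.60 and 2.74 (-0.67 ± 0.13). Its WT values, 3.28 to 3.51, overlapped the group-housed KO range and not the single-housed one. Pik3cb, the catalytic beta subunit of a PI3-kinase, was at 2.70, 2.72 and 2.69 against 1.60, 1.71 and 1.73 (-1.02 ± 0.18). In WT, Pik3cb took the same 2 levels: 2 of 3 group-housed libraries were high, and the third group-housed and all 3 single-housed ones lay at 1.57 to 1.87.

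Pogz, a chromatin-binding zinc finger protein, was at 2.49, 2.77 and 2.90 against 1.16, 1.30 and 1.20 (-1.50 ± 0.32), with WT values from 0.91 to 2.60. Carf, a calcium-responsive transcription factor of neurons, was at 1.46, 1.43 and 1.32 against 0.79, 0.96 and 0.87 (-0.53 ± 0.10), and its WT difference was -0.44 ± 0.10. Neither difference of Carf passed over all genes, and that in WT is between libraries that also differ in Y-linked signal. Epc2, a homologue of Drosophila enhancer of polycomb, differed by -0.26 ± 0.06.

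Tnpo1, the nuclear import receptor transportin, showed 2 clearly separate levels. It was at 2.41, 2.52 and 2.57 in group-housed KO and 0.21, 0.31 and 0.23 in single-housed KO (-2.25 ± 0.45; adjusted p = 0.47). In WT it was low in both housing conditions except for 1 single-housed library at 2.36. The remaining genes on this side were Tenm4, a teneurin adhesion protein (-0.35 ± 0.07), Wnk4, a kinase that controls ion cotransport (-0.50 ± 0.10), Mapk1ip1 (-0.68 ± 0.15), and Erlec1, a lectin of the endoplasmic reticulum (-0.27 ± 0.06). Tenm4 differed by 0.28 ± 0.07 in WT, and its interaction of -0.63 ± 0.10 did not pass (limma, adjusted p = 0.295).

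On the higher side, Sdf2, an endoplasmic reticulum protein of the folding machinery, was at 4.98, 4.96 and 4.84 in group and 5.26, 5.19 and 5.18 in single housing (0.28 ± 0.05; limma, adjusted p = 0.4). Mrpl3, a protein of the mitochondrial ribosome's large subunit, was at 4.47, 4.53 and 4.45 against 4.99, 4.86 and 4.87 (0.42 ± 0.08). In WT, Mrpl3 lay at 4.59 to 5.01 with a difference of 0.21 ± 0.08, in the same direction.

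Cic, the repressor capicua, which ERK signalling relieves, was at 3.07, 2.88 and 3.07 against 3.62, 3.69 and 3.71 (0.66 ± 0.13). In WT, Cic went the other way, with single-housed libraries at 2.88 to 2.92 and group-housed ones at 2.99 to 3.63, and the interaction of 1.07 ± 0.18 did not pass (limma, adjusted p = 0.295). Uimc1, a ubiquitin-binding protein of a BRCA1 complex, differed by 0.43 ± 0.08, and Wdr73, a WD-repeat protein, by 0.43 ± 0.08. The span of Uimc1 overlaps Gm6344, a pseudogene on the opposite strand that differed by -1.87 and is described below. Setd3, the methyltransferase that modifies a histidine of actin, was at 5.23, 5.10 and 5.25 against 5.87, 5.87 and 5.91 (0.69 ± 0.15). Agrn, for the proteoglycan agrin that organises synapses, was at 1.92, 3.11 and 2.21 against 3.76, 3.64 and 3.23 (1.12 ± 0.28), and here the group-housed KO libraries lay below the WT range of 3.24 to 4.01. Smaller differences were those of Prpsap2, a partner of nucleotide precursor synthesis (0.30 ± 0.07), Rgs10, which shortens G protein signals (0.23 ± 0.05), Zmym3 (0.19 ± 0.05) and Hmox2, the constitutive haem oxygenase (0.15 ± 0.03).

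Rpl29, a protein of the large ribosomal subunit, was the ribosomal protein gene with the smallest p. It was at 6.00, 6.11 and 5.84 in group-housed KO and 6.97, 6.83 and 6.87 in single-housed KO (0.91 ± 0.19; limma, adjusted p = 0.583). Of 14 tested processed pseudogenes of Rpl29, copies of its mRNA in the genome, 7 were lower and 7 higher in single housing. The 4 with the largest differences were lower, 3 others were lower by -0.30 to -0.03, and the 7 higher ones differed by 0.06 to 0.76. A window of 120 bases of the coding sequence is shown for Rpl29 and the 4 copies with the largest differences, from GRCm38, since the sequences show how few bases tell these genes apart. Capitals mark bases that differ from Rpl29. The windows are chr9:106431147-106431266 (plus strand) for Rpl29, chr1:43189336-43189455 (plus) for Gm8210, chr5:115801860-115801979 (minus) for Gm13841, chr2:134804126-134804245 (plus) for Gm14036 and chr13:55085957-55086076 (plus) for Gm6344.
Rpl29: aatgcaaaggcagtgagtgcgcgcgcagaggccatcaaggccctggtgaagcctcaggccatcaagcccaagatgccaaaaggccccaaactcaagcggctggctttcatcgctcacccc
Gm8210: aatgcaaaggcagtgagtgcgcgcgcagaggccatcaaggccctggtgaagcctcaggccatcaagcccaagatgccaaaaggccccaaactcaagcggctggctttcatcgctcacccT
Gm13841: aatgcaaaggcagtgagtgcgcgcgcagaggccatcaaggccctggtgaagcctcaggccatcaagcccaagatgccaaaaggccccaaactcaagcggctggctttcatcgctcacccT
Gm14036: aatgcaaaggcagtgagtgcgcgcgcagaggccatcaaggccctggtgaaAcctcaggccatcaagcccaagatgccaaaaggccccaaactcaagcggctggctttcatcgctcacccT
Gm6344: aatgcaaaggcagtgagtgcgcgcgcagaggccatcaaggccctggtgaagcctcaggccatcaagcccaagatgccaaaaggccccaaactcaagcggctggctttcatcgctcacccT

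Over the compared coding sequence each of these pseudogenes differed from Rpl29 at 3 bases, of 477 compared for Gm14036 and 480 for the others. Within the window shown, Gm14036 differed at 2 bases and the other 3 copies at 1, the last base of the window, where all 4 copies hold the same base. Gm8210 and Gm13841 were 100% identical over their 483 bases. Reads of these genes can therefore be told apart at few positions, and the labels do not state how reads that match several copies were assigned.

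The 4 pseudogenes were high in all 3 group-housed KO libraries. Gm14036 was at 5.31, 5.48 and 5.20 in group and 3.04, 2.85 and 2.96 in single housing (-2.38 ± 0.56). Gm8210 was at 5.19, 5.27 and 5.16 against 3.35, 3.13 and 3.21 (-1.98 ± 0.43), and Gm13841 at 5.51, 5.65 and 5.34 against 4.05, 3.77 and 3.91 (-1.59 ± 0.36). Gm6344, named after its values were seen, was at 2.62, 2.34 and 2.24 against 0.50, 0.43 and 0.66 (-1.87 ± 0.30). No tested pseudogene of Rpl29 passed, and these 4 had adjusted p from 0.4 to 0.725 (limma). The group-housed WT library AGTTCC had the same high pseudogenes and low Rpl29 as group-housed KO, with 5.42 for Gm14036 and 5.98 for Rpl29, and the other 5 WT libraries were like single-housed KO.

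Added up, the family differed less between housing conditions than its members did. FPKM multiplied by exon length was summed over Rpl29 and the 14 related pseudogenes that were tested. This product only approximates fragments, since the values were normalized across libraries and the length is that of all annotated exons. The pseudogenes took 52.0% of the sum in CGATGT, 52.0% in ATGTCA and 52.1% in GTGAAA, and 51.8% in AGTTCC. They took 21.3% in CAGATC, 19.5% in CTTGTA and 20.1% in AGTCAA, and 18.5% to 21.5% in the other 5 WT libraries. The log2 of the sum was 7.19 ± 0.14 in group-housed and 7.38 ± 0.09 in single-housed KO (SD, n = 3 each), a difference of 0.18, against 0.91 for Rpl29 alone. The value of Rpl29 is therefore uncertain as a level of that gene.

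**Figure D3:**
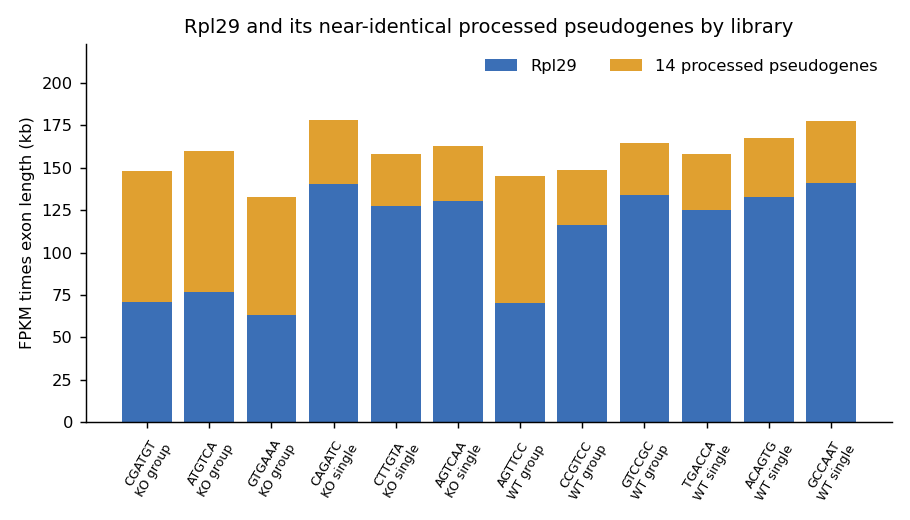
Rpl29 (lower part) and its 14 tested pseudogenes (upper part) in each library, as FPKM multiplied by exon length in kilobases (vertical axis). The pseudogenes take 51.8% to 52.1% of the bar in the 3 group-housed KO libraries and in WT library AGTTCC, and 18.5% to 21.5% in the other 8, while whole bars differ less.

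Several of the largest differences were those of genes that share sequence or span with another. Genes with small differences share spans too, such as Map1lc3b with Zcchc14 (-0.09 for Map1lc3b). Whether sharing bears on the differences was not tested. Among genes with separate housing ranges and a mean level of at least 2, the 6 largest lower values were those of Bcl2l2, Gm14036, Adnp, Ccdc71, Gm8210 and Gm13841, and the largest higher value was that of Gm20716. Adnp, a homeodomain protein of chromatin, was at 4.74, 4.64 and 4.34 in group and 0.07, 3.69 and 3.64 in single housing, so CAGATC alone was near 0. Gm20716 overlaps Adnp and Dpm1 on the same strand, and was at 0, 0 and 2.89 in group and 4.74, 4.01 and 4.11 in single housing. It was highest where Adnp was lowest. Dpm1, an enzyme of glycan synthesis, was at 3.82, 3.68 and 2.39 against 2.23, 2.61 and 2.38. Bcl2l2, for the survival protein Bcl-w, was at 5.77, 5.63 and 5.72 against 2.98, 3.10 and 3.06 (-2.66 ± 0.84; limma, adjusted p = 0.995). Its span overlaps Gm20521, a same-strand gene that also overlaps Pabpn1, and WT libraries were at either of the 2 levels of Bcl2l2 (2.72 to 5.76). Gm20521 was at 0, 2.37 and 2.74 in group and 2.49, 1.98 and 1.93 in single housing. Dpm1, Gm20521 and Pabpn1 were looked up after the values of their neighbours were seen.

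Such separate levels were not particular to the housing contrast. Over the 12 libraries, 183 of the 12716 genes had 2 levels with a gap of at least 0.6 of their range, a range of at least 0.5 and at least 3 libraries on each side. In 9 of them the gap fell between the KO housing groups: Ccdc71, Tnpo1, Pik3cb, Setd3, Bcl2l2, Dock9 and the pseudogenes Gm8210, Gm13841 and Gm14036, a set found after the values were seen. Of these 9, only Ccdc71 had all 6 WT libraries on the side of group-housed KO. Parts of Pik3cb (522 bases, 99.6% identical) and Setd3 (943 bases, 98.0% identical) also match another annotated gene, Gm12992 and Gm14026, which differed by 0.25 and 0.10 in KO.

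The other genes with separate ranges and large higher values were less even within groups. Gas7, a growth arrest protein that binds actin, was at 2.17, 2.49 and 2.74 against 4.55, 4.71 and 2.76 (1.54 ± 0.62). Serpina3n, a protease inhibitor of reactive glia, was at 4.19, 2.36 and 4.51 against 5.42, 5.44 and 4.58 (1.46 ± 0.60), so 1 library set much of each group's mean. Tmem9, a lysosomal membrane protein, was at 5.78, 4.02 and 3.97 against 6.15, 6.02 and 5.90 (1.43 ± 0.54), and Elavl2, a neuronal RNA-binding protein, at 3.86, 4.37 and 5.22 against 5.46, 5.48 and 5.51 (1.0 ± 0.36). None passed (adjusted p = 0.995).

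Fos and Egr1 were lower in single-housed than in group-housed WT, where housing and Y-linked signal cannot be told apart, and their values in KO were set beside that. Fos, a transcription factor induced by synaptic activity, was at 2.64, 3.62 and 3.01 in group-housed and 2.80, 3.12 and 2.73 in single-housed KO (-0.21 ± 0.23), and these ranges overlap. Egr1, induced in the same way, was at 3.13, 3.82 and 3.20 against 3.39, 3.43 and 3.18 (-0.05 ± 0.21). The differences in WT were -1.91 ± 0.23 and -1.74 ± 0.21 (limma, adjusted p = 0.0225 for each). The tests of the difference between genotypes gave 1.70 ± 0.32 for Fos and 1.69 ± 0.29 for Egr1, neither of which passed over all genes (limma, adjusted p = 0.471 and 0.295). The 95% intervals in KO were -0.71 to 0.30 for Fos and -0.51 to 0.41 for Egr1. They do not test a difference between genotypes, since the WT differences have an error of their own. Both genes were also chosen because they had passed in WT. Fhdc1 and 2700099C18Rik were chosen for the same reason and differed by -0.15 and -0.08 in KO. Fos and Egr1 in single-housed KO lay above single-housed WT (1.76 to 1.89 for Fos, 2.31 to 2.46 for Egr1) and below group-housed WT (3.42 to 4.04 and 3.71 to 4.47).

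Of 41 tested immediate early genes, 15 were higher and 26 lower in single-housed KO, 0 passed, and the median was -0.03, against 0.00 over all genes, of which 50.3% were higher and 49.6% lower. In WT 36 of the 41 were lower, with a median of -0.26. The member with the smallest p in KO was Ier3, an early response gene of survival signalling, at 2.37, 2.40 and 2.40 against 2.72, 2.49 and 2.65 (0.23 ± 0.07). Npas4, a neuronal activity factor, was at 0.67, 1.11 and 0.92 against 0.67, 0.37 and 0.74 (-0.30 ± 0.14). Trib1 differed by -0.21 ± 0.10 and Klf6 by -0.17 ± 0.08.

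No gene of the pentraxin system passed in KO. Of 23 tested genes of pentraxins, AMPA receptors and their partners, 15 were higher and 8 lower, with 0 past the threshold and a median of 0.04. Nptx1, the pentraxin that forms complexes with Nptx2, was at 3.28, 3.57 and 3.36 against 3.19, 3.44 and 3.35. Nptxr, their membrane-bound relative, was at 5.18, 5.25 and 5.26 against 5.22, 5.36 and 5.23. Gria4, the AMPA receptor subunit gathered by them, was at 5.77, 5.85 and 5.94 against 5.78, 5.80 and 5.82 (-0.05 ± 0.05). Gria3, another subunit, took 2 levels that did not follow housing: 4.16, 4.25 and 5.73 against 5.56, 5.57 and 5.54. Among auxiliary subunits, Cacng7 differed by -0.13 ± 0.07 and Cacng2, stargazin, by -0.08 ± 0.05.

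More synaptic scaffold and channel genes were lower than higher, by small amounts. Of 25 postsynaptic scaffold genes 20 were lower and 5 higher, with a median of -0.06, and of -0.11 to -0.04 when 1 KO library was left out. Their mean deviation was 0.07, -0.02 and 0.10 in group and -0.17, -0.01 and 0.03 in single housing, so the groups overlap and CAGATC was lowest. Dlg2, the scaffold PSD-93, was at 3.81, 3.84 and 4.23 against 3.52, 3.54 and 3.70 (-0.38 ± 0.17). Shank2 was at 2.33, 1.88 and 2.38 against 0.89, 1.89 and 1.99 (-0.61 ± 0.27), so its lowest value was that of CAGATC. Gphn, for gephyrin, which anchors inhibitory receptors, differed by -0.10 ± 0.05. Of 58 ion channel genes of fast-spiking cells 40 were lower and 18 higher, with a median of -0.03 that became 0.00165 without GTGAAA. Kcns3, a modulatory potassium channel subunit of these cells, was at 4.84, 4.99 and 4.91 against 4.93, 1.65 and 2.28, and WT values ran from 1.70 to 5.01. Its low values in KO were those of the 2 libraries with Y-linked signal, and without these the difference was 0.0225. In WT it was low in 1 of the 3 libraries with that signal, at 1.70, and at 4.94 and 5.0 in the other two. Scn2b, a sodium channel subunit, was at 5.29, 6.46 and 5.40 against 6.24, 6.42 and 6.45 (0.65 ± 0.24). In each of these lists 0 genes passed.

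Genes of GABA and of release had medians near 0. Of 22 genes of GABA synthesis, release and receptors 16 were lower and 6 higher (median -0.03). Gad1, the main GABA-synthesising enzyme, was at 10.65, 10.65 and 10.68 against 10.60, 10.65 and 10.51, and Abat, which degrades GABA, at 7.13, 7.23 and 7.41 against 7.11, 7.14 and 7.02. Of 48 synaptic vesicle release genes 24 were higher and 23 lower. Rab3b, a vesicle GTPase, was at 7.23, 7.82 and 7.94 against 7.93, 8.22 and 8.08 (0.41 ± 0.17), and Erc1, an active zone scaffold, at 2.81, 2.77 and 2.80 against 2.15, 2.31 and 2.39 (-0.51 ± 0.22). Of 37 neurexin, neuroligin and adhesion genes 19 were higher and 18 lower, with Cntnap4, an adhesion protein of interneuron synapses, at 4.87, 4.85 and 4.98 against 5.47, 5.63 and 4.98 (0.47 ± 0.20). The perineuronal net, the matrix around these cells, had 9 of 18 genes higher and 9 lower, with a median of 0.00 and a largest value of 0.16. No gene of these lists passed.

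**Figure D4:**
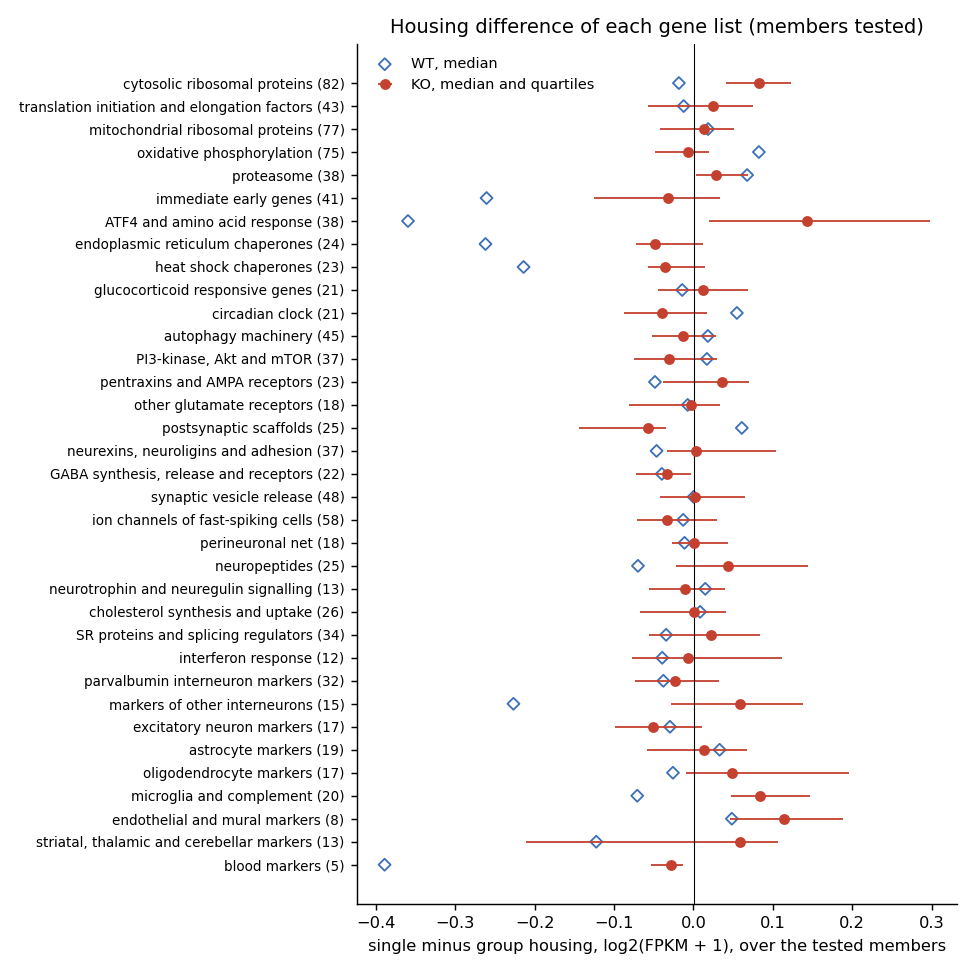
Median difference between single and group housing over the tested members of each gene list (horizontal axis, log2(FPKM + 1)), for KO (filled, with quartiles) and WT (open). The vertical line is the KO median over all genes, 0.00, and KO medians of lists of at least 5 genes lie between -0.06 and 0.14. The median changed sign in 27 of these 35 lists when 1 KO library was left out.

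The medians of gene lists moved with single libraries. In 27 of the 35 lists with at least 5 tested genes the median changed sign when 1 KO library was left out, and in 8 it kept its sign. These 8 were cytosolic ribosomal proteins, proteasome, circadian clock, PI3-kinase and mTOR, postsynaptic scaffolds, neuropeptides, microglia and complement, and endothelial markers. Over the KO libraries without Y-linked signal the circadian clock median was 0.02, and that of microglia and complement, given below, changed sign too.

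More cytosolic ribosomal protein genes were higher than lower, by little. Of 82 tested, 72 were higher and 10 lower in single-housed KO with a median of 0.08, against 50.3% higher and a median of 0.00 over all genes. None passed, and 3 of the 82 had an unadjusted p under 0.05 in the higher direction, where 2.34% of all genes did. In WT 36 were higher and 46 lower. The mean deviation of the list from its 12-library mean was 0.07, 0.01 and -0.19 in group-housed and 0.12, -0.02 and 0.04 in single-housed KO, so the groups overlap and GTGAAA was lowest. Without GTGAAA the median was 0.00157. After Rpl29 the members with the smallest p were Rpl24 (7.35, 7.29 and 7.16 against 7.49, 7.44 and 7.46), Rpl3 (6.71, 6.71 and 6.60 against 6.89, 7.11 and 6.80) and Rpl19 (0.11 ± 0.05). Ribosomal protein genes have many processed copies. Copies of Rpl24, Rpl3 and Rpl19 were not sought, so whether their values carry the uncertainty shown for Rpl29 was not tested.

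Of the translation factors, 27 of 43 were higher, with a median of 0.02. Eif2b4, a subunit of the exchange factor on which the integrated stress response acts, was at 4.53, 4.46 and 5.04 against 5.29, 5.14 and 5.12 (0.51 ± 0.17). Eif2s2, a subunit of its substrate, was at 5.32, 4.95 and 5.11 against 5.24, 5.47 and 5.52 (0.28 ± 0.10). Mitochondrial ribosomal proteins had 43 of 77 higher and a median of 0.01, with Mrpl51 (-0.16 ± 0.05) and Mrpl2 (0.15 ± 0.07) next to Mrpl3. Oxidative phosphorylation had 44 of 75 lower and a median of -0.01, where WT had 62 higher and a median of 0.08. Ndufb10, a complex I subunit, was at 8.0, 7.85 and 7.71 against 7.65, 7.24 and 7.61 (-0.35 ± 0.13), and differed by 0.62 in WT. The interaction for Ndufb10 was -0.97 and did not pass (limma, adjusted p = 0.471). Cox6c, a complex IV subunit, was at 9.26, 9.19 and 9.08 against 8.84, 8.63 and 8.72 (-0.45 ± 0.19). Proteasome genes had 29 of 38 higher, with a median of 0.03 and values from -0.14 to 0.17.

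Genes of the ATF4 and amino acid response, which ATF4 turns on when translation is under stress, differed among KO libraries more than between housing conditions. Of 38 tested, 30 were higher and 8 lower, with a median of 0.14 and 0 passed. The mean deviation of the list was 0.53 in CGATGT, -0.31 in ATGTCA and -0.27 in GTGAAA, and -0.33 in CAGATC, 0.32 in CTTGTA and 0.44 in AGTCAA. High and low libraries thus occurred in both housing conditions, 1 of 3 high in group and 2 of 3 in single housing. Psph, the last enzyme of serine synthesis, was highest in the same 3 libraries, at 4.55, 3.38 and 2.79 against 3.42, 4.18 and 4.28. Pycr1, of proline synthesis, was at 2.23, 1.44 and 1.42 against 1.40, 2.44 and 2.33. Among the 4 KO libraries without Y-linked signal the list's median was -0.28, with CAGATC alone on the single-housed side.

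Chaperone medians were close to 0. Of 24 endoplasmic reticulum chaperone genes 17 were lower (median -0.05), and of 23 heat shock chaperones 14 were lower (median -0.04), where WT medians were -0.26 and -0.21. Hsp90aa1, the inducible HSP90, was at 8.81, 8.91 and 9.15 against 8.82, 7.87 and 8.74 (-0.48 ± 0.27), with CTTGTA lowest. Cryab, a small heat shock protein, was at 3.30, 3.51 and 3.09 against 2.55, 3.04 and 3.38 (-0.31 ± 0.19).

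**Figure D5:**
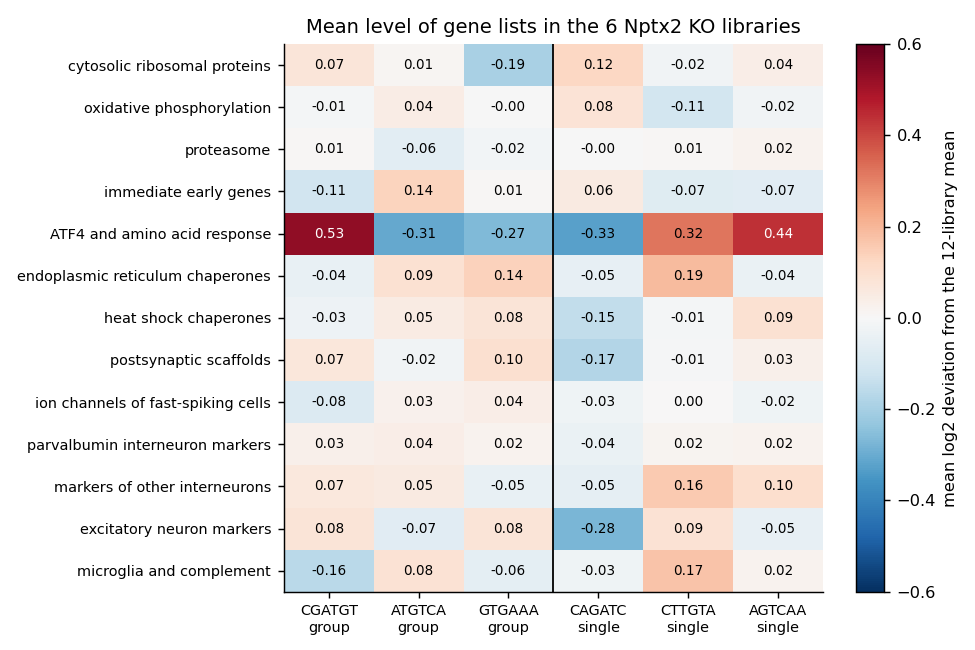
Mean deviation of 13 gene lists from their 12-library mean in the 6 KO libraries (columns; log2, colour and printed value). ATF4 and amino acid response genes are high in the group-housed CGATGT and the single-housed CTTGTA and AGTCAA and low in the other 3, across housing conditions, and the other lists shown lie between -0.28 and 0.19.

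Stress hormone, clock and growth pathways gave small values. Of 21 glucocorticoid-responsive genes 12 were higher and 9 lower (median 0.01). Fkbp5, a glucocorticoid-induced chaperone of the receptor, was at 2.68, 2.54 and 2.48 against 2.65, 2.73 and 2.68 (0.12 ± 0.07), Gpd1 differed by 0.22 ± 0.08, and Nr3c1, the receptor gene itself, by -0.07 ± 0.06. Circadian clock genes had 14 of 21 lower (median -0.04, and 0.02 over the KO libraries without Y-linked signal). Autophagy genes had 26 of 45 lower and a median of -0.01, so that Atg7 stood with few others: Map1lc3b, an LC3 protein, differed by -0.09 ± 0.05 and Tfeb, a regulator of lysosome genes, by -0.36 ± 0.18, whereas Rab7, of late endosomes, was at 7.30, 7.21 and 7.65 against 7.68, 7.84 and 7.86 (0.41 ± 0.15). PI3-kinase, Akt and mTOR genes had 24 of 37 lower (median -0.03), with Pik3cb at one end and Rps6kb2, an S6 kinase, at 0.29 ± 0.08. Neuropeptide genes had 17 of 25 higher (median 0.04); Pthlh was at 4.70, 4.91 and 4.79 against 4.42, 4.62 and 4.60 (-0.25 ± 0.11) and Scg2 at -0.13 ± 0.05. Cholesterol synthesis had 13 of 26 higher, splicing regulators 21 of 34, interferon genes 6 of 12, other glutamate receptors 7 of 18 and neurotrophin and neuregulin genes 6 of 13. No gene of these lists passed.

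Markers of other cells were read last. Fewer cells of a type and less RNA per cell cannot be told apart in such samples. Of 32 tested parvalbumin interneuron markers 12 were higher and 20 lower (median -0.02), and of 15 markers of other interneurons 10 were higher (median 0.06), with Sst, for somatostatin, at 6.16, 6.30 and 6.48 against 6.38, 6.52 and 6.47. Other interneuron markers summed to 617.8 to 856.4 FPKM in group and 638.0 to 842.0 FPKM in single housing. Excitatory neuron markers had 11 of 17 lower (median -0.05). Tbr1, a transcription factor of cortical projection neurons, differed by -0.16 ± 0.10. The mean deviation of the excitatory list was 0.08, -0.07 and 0.08 in group and -0.28, 0.09 and -0.05 in single housing, so CAGATC was lowest.

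Of 20 microglia and complement genes 18 were higher and 2 lower (median 0.08), and 0 passed. Cd68, a lysosomal protein of microglia, was at 0.92, 1.12 and 1.34 against 1.58, 1.41 and 1.64 (0.42 ± 0.13), and C1qc, of complement, at 2.36, 2.72 and 2.55 against 2.55, 2.83 and 2.85 (0.20 ± 0.10). The sum of these markers was 284.7 to 293.9 FPKM in group and 284.4 to 335.5 FPKM in single housing, with CAGATC lowest. The median was 0.02 without CTTGTA and -0.01 over the 4 KO libraries without Y-linked signal. Astrocyte markers had 12 of 19 higher (Aldoc 0.16 ± 0.05) and oligodendrocyte markers 11 of 17 (Mag 0.25 ± 0.08, Opalin 0.25 ± 0.11). Endothelial and mural markers had 6 of 8 higher (Cldn5 0.29 ± 0.12). Their sum was not higher, at 414.4 to 493.1 FPKM in group and 409.8 to 425.7 FPKM in single housing. Blood markers varied by library and not by housing: they summed to 141.0, 103.5 and 304.4 FPKM in group and 96.6, 276.4 and 156.6 FPKM in single housing. Ttr, the 1 choroid plexus marker in the table, was at 3.23, 5.02 and 4.58 against 5.18, 5.25 and 5.21 (0.93 ± 0.48). Of 13 striatal, thalamic and cerebellar markers 7 were higher and 6 lower. The part of other cells in the gene differences was not tested.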

How the data were processed

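The libraries hold RNA pulled down with tagged ribosomes from mouse cortex. The kit was TruSeq stranded mRNA, per the labels' protocols. The authors deposited log2(FPKM + 1) per gene and library, per the file headers. The submitters' processing notes name the build GRCm38 and the tools HISAT2, StringTie and limma, without versions or order. The sorted values were nearly identical in all columns (a repeat of quantile normalization moved none by more than 0.00883), so differences in total RNA are not visible, and no counts or depths are known.

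Groups were taken from the labels. Genes were kept if 3 or more libraries reached a value of 1, and were fitted with limma 3.58.1 in R 4.3.3 (4 group means, 12 libraries, variance trend, 8 residual degrees of freedom), with Benjamini-Hochberg adjustment over 12716 genes and a threshold of 0.05. With 3 against 3, an exact permutation test of a single value cannot go below 0.1, so none was run. The fit was tested on simulated data. Of the 13190 gene IDs, 13131 were found in the GENCODE M21 annotation, from which positions and overlaps were taken. Copies were sought with BLAST 2.17.0 (at least 90% identity over 200 bases), and tables were handled in Python 3.11.15 with pandas 2.3.3.

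The named genes are those past the threshold, the 12 per direction with the smallest unadjusted p (no predicted, clone or pseudogene names), the 6 per direction with the largest differences among genes with separate ranges and a mean of at least 2, up to 4 members per list by smallest p, and pentraxin genes. Fos, Egr1, Fhdc1 and 2700099C18Rik were named because they had passed in WT in earlier results. Others are named as chosen after their values were seen. The comparison, the gene lists and these rules were chosen with earlier results of these data known. Alternatives varied the gene filter, pseudocount, scaling, variance model, library weights, the Y-linked signal and the libraries used. The authors' comparisons of KO with WT were not used.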

Additional observations from a re-analysis of the deposited data

Results flagged for a closer look

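Ccdc71 differed between genotypes in its housing difference: the interaction was -2.10 ± 0.23 (limma, adjusted p = 0.0485), with -2.04 ± 0.17 in KO and 0.06 ± 0.17 in WT, where housing and Y-linked signal cannot be told apart. All 3 single-housed KO libraries lay below all 9 others, and its sensitivity to the libraries and settings used is given with the processing alternatives. No cause was tested.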

How the results depend on the processing

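The difference of Ccdc71 in KO stayed past the threshold in all 6 analyses that left out a KO library (-2.29 to -1.90) and in the 10 others run (-2.39 to -2.04; limma, adjusted p from 8.85e-06 to 0.0436). The count of genes called in KO, 1, was also 1 with all deposited genes, a mean of at least 2, median-ratio factors, no variance trend, robust variance or library weights. It was 2 with a pseudocount of 0.1, 17 with a term for Y-linked signal, 16 in the 6 KO libraries alone, 19 in the KO libraries with no Y-linked signal, and 1 to 8 when 1 library was left out (the WT libraries were left out as an addition made after seeing the data). Leaving CAGATC as the lone single-housed library assumes that it varies like the other groups. The interaction count of 1 became 0 with a pseudocount of 0.1 (969 genes at an unadjusted p under 0.05) and with no variance trend (958), 18 without the 2 KO libraries that carry Y-linked signal (the 3 WT libraries with it stayed in), and 0 to 8 when 1 library was left out (628 to 1282 at an unadjusted p under 0.05 where it was 0, which was without CCGTCC, without GTCCGC, without CGATGT and without ACAGTG). The interaction of Ccdc71 was -2.45 with a pseudocount of 0.1 (limma, adjusted p = 0.12), -2.10 with no variance trend (0.0541), -1.97 with the Y-linked term (0.0625), and -2.35 to -1.97 when 1 library was left out (2 of 12 called; adjusted p from 7.10e-06 to 0.238). The Y-linked term rests on the single-housed KO libraries, the only group that held libraries with and without the signal. For Ccdc71 it gave the same difference in KO as leaving out the 2 KO libraries with the signal (-2.30). Its interaction was the same as that without CAGATC (-1.97). These are therefore not separate estimates. The cause of the moves in these counts and interactions was not tested.

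Sign changes among named genes were all of values that passed no threshold. With the Y-linked term or without the KO libraries that carry the signal, the differences were 0.10 for Nptx2, -0.0155 for Nptxr, 0.26 for Pvalb, 0.00364 for Egr1, 0.0225 for Kcns3, -0.16 for Psph, -0.29 for Pycr1, 0.20 for Gpx1, 0.23 for Klhdc8b and 0.14 for Qars, and Usp19 was 0.0226 with library weights. Leaving out 1 library gave -0.00171 to 0.87 for Psph, -0.14 to 0.0492 for Nptx2, -0.14 to 0.00754 for Nptx1, -0.00848 to 0.0615 for Nptxr, -0.27 to 0.0484 for Pvalb, -0.43 to 0.0559 for Fos, -0.18 to 0.17 for Egr1, -1.16 to 0.0707 for Gpx1, -0.31 to 0.14 for Klhdc8b, -0.12 to 0.0311 for Usp19, -0.17 to 0.0538 for Qars, -0.16 to 0.0158 for Qrich1 and -0.42 to 0.95 for Gm20521. Of 266 list medians recomputed, 16 moved by more than 1 SD between libraries, most of them without the KO libraries with Y-linked signal. There the medians were -0.26 for excitatory neuron markers, -0.16 for postsynaptic scaffolds and 0.08 for oxidative phosphorylation.

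No paired analysis was possible because the columns carry barcodes and no replicate numbers. With 3 libraries a group, unknown depth and quantile-normalized values, small differences and shifts common to all genes are not detectable.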
